A study of Mus musculus with 24 samples.

Results

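The 10 genes described here encode 9 integrin subunits and ICAM-1, a ligand of the β2 integrins, and were chosen by symbol among the 55421 genes of the count table. All 10 passed the filter on low counts, together with 16593 genes in all. RNA was sequenced from macrophages grown out of bone marrow (BMDMs), taken from wildtype (WT) C57BL/6J mice and from mice of the germline knockout strain B6.129-Ahr tm1Bra/J (AhR-KO). AhR is the aryl hydrocarbon receptor, a transcription factor activated by small ligands. Per the labels, bone marrow of both genotypes was grown with 10 ng/ml GM-CSF and 2 ng/ml TGF-β in 10% FBS, which is meant to give alveolar-like cells. On day 6 the cells were left unstimulated or received LPS, a ligand of TLR4, at 97 EU/ml for 24 h, and the protocol then lists the Ca2+ ionophore A23187 at 5 µM for 10 min. This gave 4 groups of 6 libraries: WT unstimulated, AhR-KO unstimulated, WT LPS and AhR-KO LPS. Mice of both sexes, aged 7 to 14 weeks and matched for age and sex, were used in the study, and the labels give no age per library. Libraries carry the numbers 17 to 40, and the labels do not say which unstimulated and stimulated cultures came from the same animal.

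Integrins are adhesion receptors made of an α and a β subunit, and neither subunit reaches the cell surface in quantity without a partner. The β2 subunit pairs with αL to form LFA-1 and with αM to form Mac-1, which bind ICAM-1 and, for Mac-1, complement fragments and fibrinogen. The β7 subunit pairs with α4, a receptor for MAdCAM-1 and VCAM-1, or with αE (CD103), a receptor for E-cadherin that is known from intraepithelial lymphocytes and from dendritic cells of mucosa. The αv subunit pairs with β5 or β8, and αvβ8 is known for releasing active TGF-β from its latent complex. Alveolar macrophages are known for carrying much αX and little αM.

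RefSeq promoter windows of GRCm38.p6 were at hand for 7 of the genes, and 3 are printed. Itgb7 and Itga4 are shown as the genes with a window that were called by genotype, and Icam1 as the ligand of the β2 integrins. The windows of Itgam, Itgav, Itgb8 and Itgb5, which were called by LPS, are not printed. Each line runs 5′ to 3′ on the gene's strand from 250 bases before to 30 after the start annotated by RefSeq. That start is the deposited gene start for Itga4 but lies 9 bases inside the deposited gene for Itgb7 and 45 bases upstream of it for Icam1, so that the printed Icam1 stretch ends before the deposited start. Among the windows searched but not printed, that of Itgb8 begins from another start than the deposited one. Itgb7 lies at chr15:102231906-102232185, minus strand, with a PU.1 motif in capitals. Icam1 lies at chr9:21015690-21015969, plus strand, with the core of the AhR response element in capitals. Itga4 lies at chr2:79255176-79255455, plus strand, with a Runx motif and, nearer the end, the AhR core in capitals.
Itgb7: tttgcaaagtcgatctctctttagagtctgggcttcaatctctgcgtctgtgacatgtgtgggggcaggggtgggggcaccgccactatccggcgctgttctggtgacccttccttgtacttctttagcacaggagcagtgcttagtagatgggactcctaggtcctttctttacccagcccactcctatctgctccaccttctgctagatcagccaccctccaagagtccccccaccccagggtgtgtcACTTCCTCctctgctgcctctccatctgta
Icam1: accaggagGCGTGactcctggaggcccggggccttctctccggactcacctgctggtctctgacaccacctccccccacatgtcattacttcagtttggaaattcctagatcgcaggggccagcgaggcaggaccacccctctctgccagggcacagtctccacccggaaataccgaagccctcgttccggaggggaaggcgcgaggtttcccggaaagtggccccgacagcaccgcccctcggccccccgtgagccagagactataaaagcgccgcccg
Itga4: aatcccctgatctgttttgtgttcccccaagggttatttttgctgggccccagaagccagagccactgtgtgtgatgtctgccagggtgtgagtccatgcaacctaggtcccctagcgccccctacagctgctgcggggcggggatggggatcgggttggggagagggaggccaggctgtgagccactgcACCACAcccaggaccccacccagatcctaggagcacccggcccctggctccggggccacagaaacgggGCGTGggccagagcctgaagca
Motifs were searched on both strands of the whole windows, which reach 50 bases past the start. The AhR core GCGTG was in 3 of the 7 windows (Icam1, Itga4 and Itgb5) and in 32.4% of all 32851 windows. The PU.1 motif GAGGAAGT was in 2 (Itgb7 and Itgav) and in 3.20% of all windows, and the Runx motif TGTGGT was in Itga4 and in 16.8% of all. No match was found in the 7 windows for TGANTCA (AP-1, 7.81% of all windows). The NF-κB motif was searched only in a form that opens with GGG and ends with CC, which was in 8.46% of all windows and in none of the 7. That form does not cover every κB-type site, and the Icam1 window printed above holds tggaaattcc, a κB-type sequence known from the ICAM-1 promoter, which it could not match. A match is a stretch of letters and not a bound site.

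Gene counts summed to 45106052 in the smallest library and to 76992663 in the largest. Levels are given as CPM, counts per 1000000 of the TMM-scaled library. Libraries of 1 group differed in the slope of log2 CPM on log2 gene length, which ran from −0.36 to 0.25. Its mean was −0.03, 0.19 and −0.16 in the runs of library numbers 17 to 24, 25 to 32 and 33 to 40, each of which holds 2 libraries of every group. Group means of the slope lay between −0.02 and 0.02. Libraries 19 (AhR-KO unstimulated) and 33 (WT unstimulated) had the lowest slopes, and library 33 was the lowest of its group for all 10 genes and library 19 for 9. Ahr itself had 28.3 ± 12.2 CPM (SD, n = 6) in WT and 7.42 ± 2.39 CPM in AhR-KO without stimulation. After LPS it had 16.8 ± 7.63 CPM in WT and 43.1 ± 16.2 CPM in AhR-KO, so the counts over all exons do not by themselves check the label after LPS. All 6 macrophage markers and all 8 alveolar macrophage markers exceeded a mean of 1 CPM in every group, while all T cell and B cell markers stayed under it. Of the macrophage markers, 0 and 1 were higher in AhR-KO without stimulation and after LPS, and of the alveolar macrophage markers 2 and 2, with none lower. Of all genes tested, 0.916% and 2.17% were higher and 3.57% and 6.19% lower, by the rule for calls given below.

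Length-scaled levels differed among the 10 genes by several orders of magnitude. Itgb2 was the most abundant in every group, with 442 ± 74.0 CPM per kb in WT and 747 ± 95.5 CPM per kb in AhR-KO without stimulation, and its libraries did not overlap with those of the next gene. In unstimulated WT, Itgb5 (32.1 CPM per kb), Itgal (19.6), Icam1 (16.3), Itgam (12.2), Itgae (10.8) and Itgb7 (9.54) followed, each overlapping with its neighbour. Itgav (2.94 CPM per kb) and Itga4 (1.79) came next, and Itgb8 (0.0086) was the lowest, without overlap with Itga4. In unstimulated AhR-KO, Itgb7 (0.262 CPM per kb) and Itgae (0.069) had moved below Itga4 (1.43). After LPS, Icam1 stood second in both genotypes, with 105 ± 30.5 CPM per kb in WT and 121 ± 20.9 in AhR-KO. Itgae was the lowest in AhR-KO after LPS (0.054 CPM per kb). The place of Itgam in this order is uncertain, since most of its exon bases are shared with another gene. If all its counts came from the 1574 bases it does not share, Itgam would have 38.9 ± 12.6 CPM per kb in unstimulated WT. That would lie above the mean of Itgb5. In unstimulated AhR-KO the value would be 16.4 ± 7.85. Where in the gene its counts fall was not measured.

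**Figure D1:**
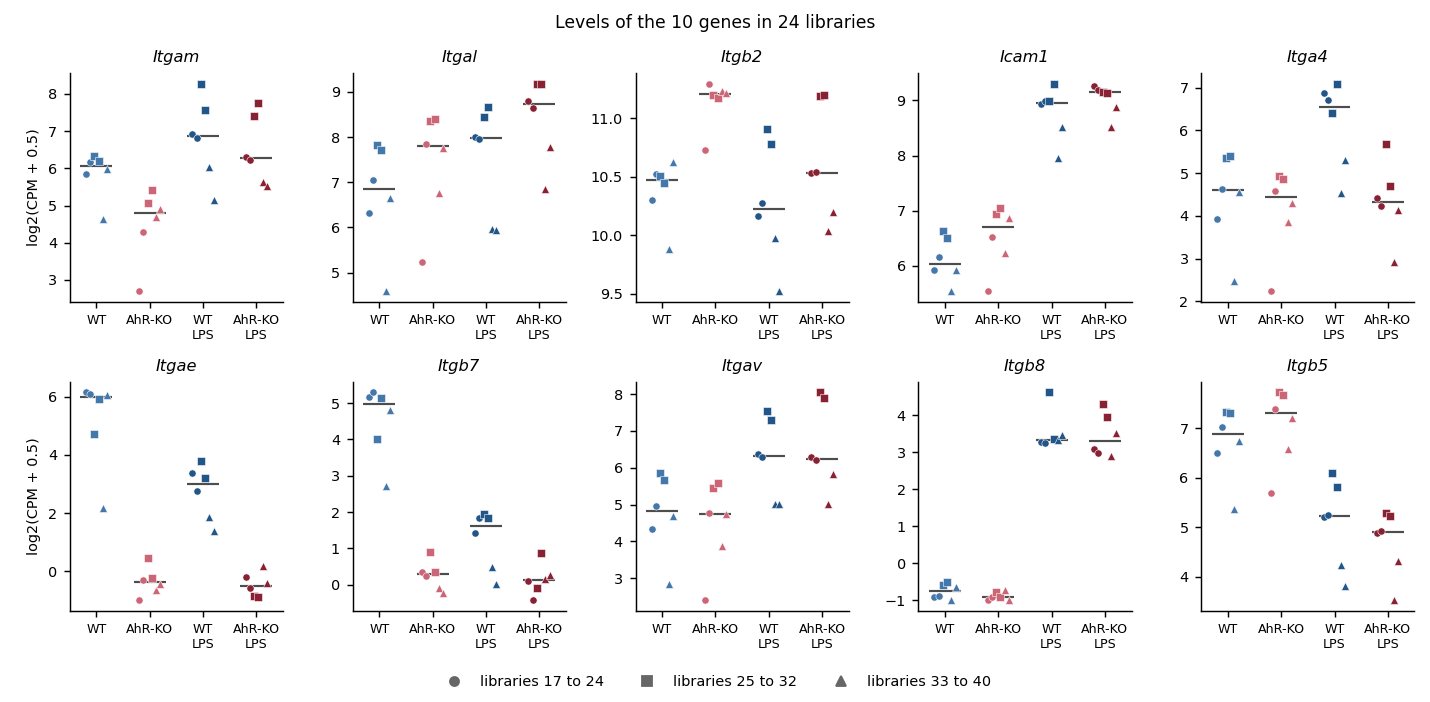
Level of each of the 10 genes in the 24 libraries as log2(CPM + 0.5), by group, with a bar at the median of 6 libraries and symbols for the 3 runs of library numbers. Itgae and Itgb7 of unstimulated AhR-KO lie under every unstimulated WT library, and Itgb8 and Icam1 of LPS-treated cells lie above every unstimulated library.

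A gene was called when its adjusted p was at most 0.05 in edgeR's quasi-likelihood test and its fold change at least 2. Without stimulation, 2 of the 10 genes were lower in AhR-KO (Itgae and Itgb7) and none was higher. Of all genes tested, 3.57% were called lower and 0.916% higher. The median log2 fold change was −0.27 over the 10 genes and −0.01 over all genes tested. After LPS, 3 were lower (Itga4, Itgae and Itgb7) and none higher, beside 6.19% and 2.17% of all genes, with medians of −0.24 and −0.05. LPS raised 4 genes in WT (Icam1, Itga4, Itgav and Itgb8) and lowered 3 (Itgae, Itgb5 and Itgb7), beside 13.2% and 11.8% of all genes. In AhR-KO it raised 4 (Icam1, Itgam, Itgav and Itgb8) and lowered Itgb5, beside 15.1% and 15.7%. Only Itgb7 of the 10 had a genotype difference that changed with LPS at an adjusted p of at most 0.05, where 1.95% of all genes had a positive and 2.34% a negative interaction. The libraries of the groups compared did not overlap for 3 of the 10 genes by genotype without stimulation (5.15% of all genes), for 1 after LPS (7.11%), for 3 by LPS in WT (22.4%) and for 4 by LPS in AhR-KO (28.5%).

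**Figure D2:**
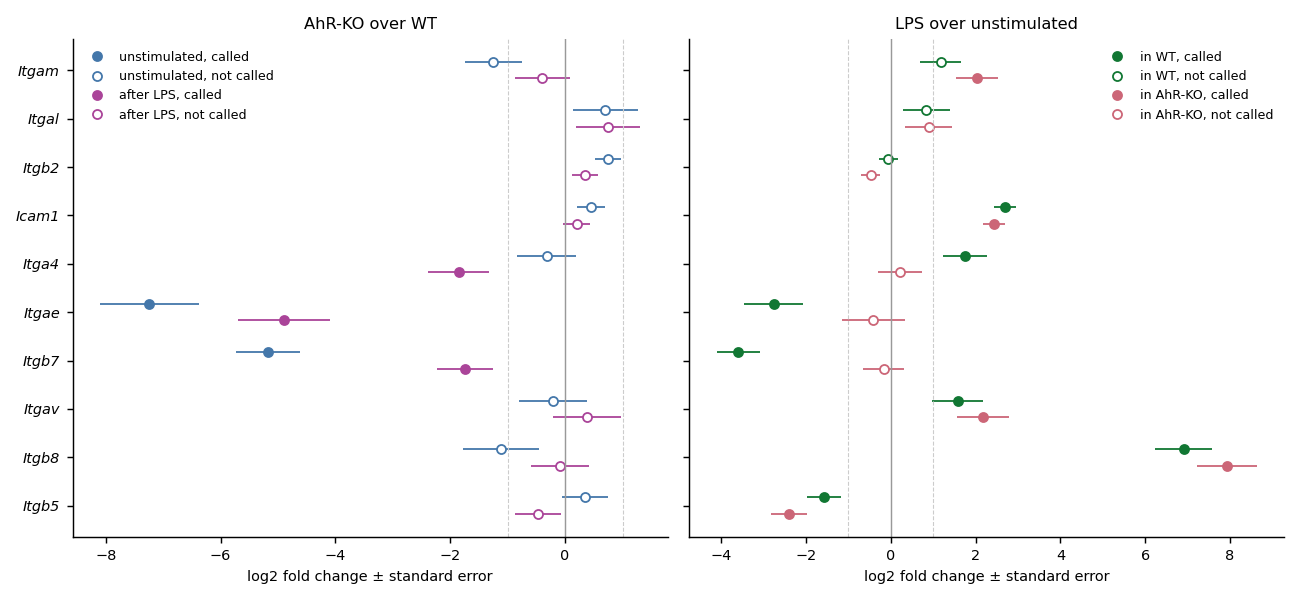
Log2 fold changes with their standard errors for AhR-KO over WT on the left and LPS over unstimulated on the right, with filled points for called genes and dashed lines at a fold change of 2. Itgae at −7.24 and Itgb7 at −5.18 stand apart on the left, and Itgb8 at 6.90 and 7.93 on the right.

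Among the β2 integrins, LPS raised Itgam in AhR-KO BMDMs, and neither Itgal nor Itgb2 was called in any comparison. Itgam (ENSMUSG00000030786, chromosome 7, 128062640 to 128118491 of mm10) encodes αM, the subunit known as CD11b. In unstimulated WT its lowest, median and highest libraries had 24.3, 66.6 and 80.0 CPM, and in unstimulated AhR-KO 5.96, 27.3 and 42.0 CPM. The highest AhR-KO libraries lay within the WT range, so the groups overlapped. The log2 fold change was −1.25 (SE 0.49, adjusted p = 0.18, edgeR), and the exact permutation test of the same libraries gave p = 0.011 (two-sided, 0.031 after adjustment over 40 tests). Itgam was called here once the fit held a factor for the runs of library numbers (−1.26, adjusted p = 0.025) or the length slope (−1.42, adjusted p = 5.2e-05). After LPS the AhR-KO libraries had 45.5, 76.8 and 215 CPM, all above the unstimulated ones, a log2 fold change of 2.03 (SE 0.50, adjusted p = 0.0018). WT libraries after LPS had 35.2, 117 and 309 CPM and overlapped with unstimulated WT, with a log2 fold change of 1.18 (SE 0.49, adjusted p = 0.061). The genotypes overlapped after LPS (log2 fold change −0.40, 95% interval −1.34 to 0.55). The LPS effects of the 2 genotypes differed by 0.85, without a call (95% interval −0.48 to 2.19, edgeR, adjusted p = 0.78). On the same strand, 3450 of the 5024 exon bases of Itgam also belong to the read-through gene Gm49368. The authors' methods do not state how fragments that touch both genes were counted. If these fragments were left out, Itgam counts come mostly from the other 1574 bases and its level per kb is understated.

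Itgb2 (ENSMUSG00000000290, chromosome 10, 77530252 to 77565708), the shared β2 subunit, varied least of the 10 over the 24 libraries, with a root mean square deviation of 0.49 on the log2 scale. Its libraries ranged from 943 over a median of 1423 to 1581 CPM in unstimulated WT and from 1701 over 2369.6 to 2518 CPM in unstimulated AhR-KO. Every AhR-KO library lay above every WT library. The log2 fold change was 0.76 (SE 0.23, adjusted p = 0.047), below the fold of 2 set for a call, and the exact permutation test gave p = 0.0022, the smallest that 6 against 6 libraries allow (0.0079 after adjustment). After LPS, WT had 733, 1193 and 1924 CPM and AhR-KO 1051, 1485 and 2359.9 CPM, which overlapped (log2 fold change 0.34, 95% interval −0.10 to 0.78). The LPS effect was −0.05 in WT and −0.47 in AhR-KO (adjusted p = 0.88 and 0.097).

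Itgal (ENSMUSG00000030830, chromosome 7, 127296260 to 127335138) encodes αL, the partner of β2 in LFA-1. Unstimulated WT libraries had 23.4, 116 and 226 CPM and unstimulated AhR-KO libraries 37.4, 223 and 337 CPM, with a wide overlap. LPS-treated libraries had 61.3, 252 and 408 CPM in WT and 115, 423 and 581 CPM in AhR-KO. All 4 log2 fold changes lay between 0.70 and 0.89, with standard errors of 0.56 and no call. This spread followed the length slope, which took 96.5% of the variance of Itgal within groups. In a fit that held the slope, Itgal was called higher in AhR-KO after LPS (1.05, adjusted p = 4.6e-07) and higher after LPS in AhR-KO (1.05, adjusted p = 5.0e-08).

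Icam1 (ENSMUSG00000037405, chromosome 9, 21015985 to 21028817), the ligand of LFA-1 and Mac-1, rose with LPS in both genotypes. In WT it went from 46.3, 65.7 and 99.1 CPM to 249, 498 and 632 CPM, and in AhR-KO from 46.0, 104 and 131 CPM to 368, 566 and 612 CPM. The stimulated libraries all exceeded the unstimulated ones. The log2 fold changes were 2.69 in WT (SE 0.26, adjusted p = 1.3e-08) and 2.44 in AhR-KO (SE 0.25, adjusted p = 3.1e-08). The 2 differed by −0.25 (95% interval −0.92 to 0.42, adjusted p = 0.97). The genotype difference was 0.45 without stimulation and 0.20 after LPS, with 95% intervals of −0.03 to 0.92 and −0.27 to 0.67.

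Ratios of subunits that pair do not depend on the scaling of libraries, and 14 of 24 ratio tests passed 0.05 after adjustment. The ratio tests did not hold the length slope. In libraries 19 and 33, which had the lowest slopes, Itgal to Itgb2 was the lowest of its group, at −6.61 and −6.44 on the log2 scale. The ratio of Itgam to Itgb2 counts per kb differed between AhR-KO and WT without stimulation by −2.14 on the log2 scale, with library values of −8.87 to −6.50 against −6.00 to −4.90 and no overlap (exact permutation test, two-sided, p = 0.0022, 0.0058 after adjustment). LPS raised it by 1.05 in WT and by 2.53 in AhR-KO (adjusted p = 0.016 and 0.0058). After LPS the genotypes differed by −0.67 with overlap (adjusted p = 0.091). The ratio of Itgal to Itgb2 rose with LPS in AhR-KO by 1.54 (adjusted p = 0.013), and its change in WT was 0.92 (adjusted p = 0.13). By genotype it differed by −0.06 without stimulation and 0.56 after LPS (adjusted p = 0.92 and 0.25).

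In the α4, αE and β7 group, αE and β7 were lower in AhR-KO BMDMs in both states, with at most 1.36 CPM in any AhR-KO library, and α4 was lower after LPS. Itgae (ENSMUSG00000005947, chromosome 11, 73090583 to 73147446) had 3.99, 63.4 and 70.7 CPM as its lowest, median and highest in unstimulated WT. In unstimulated AhR-KO it had 0, 0.272 and 0.853 CPM, which is 143 counts over 6 libraries against 21091. No library overlapped, although WT library 33, the one at 3.99 CPM, stood far below the others. The log2 fold change was −7.24 (SE 0.87, adjusted p = 5.3e-06), and leaving out 1 library at a time gave −7.85 to −7.00. After LPS, WT libraries fell to 2.13, 7.57 and 13.5 CPM, while AhR-KO libraries had 0.036, 0.205 and 0.619 CPM, again with no overlap. The genotype difference after LPS was −4.90 (SE 0.80, adjusted p = 1.3e-04). In WT the LPS effect was −2.76 (SE 0.70, adjusted p = 0.0028). AhR-KO libraries held only 143 counts without stimulation and 68 after LPS, and the LPS effect was −0.41 (SE 0.74, adjusted p = 0.70). The genotype differences in the 2 states differed by 2.34, which did not pass adjustment (adjusted p = 0.27).

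Itgb7 (ENSMUSG00000001281, chromosome 15, 102215995 to 102231944, minus strand), the partner of αE, followed the same order of groups. Its lowest, median and highest libraries had 6.06, 31.1 and 38.9 CPM in unstimulated WT and 0.348, 0.721 and 1.36 CPM in unstimulated AhR-KO. The groups did not overlap, and the log2 fold change was −5.18 (SE 0.56, adjusted p = 1.1e-06). LPS lowered the WT libraries to 0.514, 2.62 and 3.36 CPM, all below unstimulated WT (log2 fold change −3.59, SE 0.51, adjusted p = 5.0e-06). AhR-KO libraries stayed between 0.243 and 1.33 CPM with a median of 0.592 (log2 fold change −0.16, SE 0.48, adjusted p = 0.82). After LPS the genotypes overlapped and differed by −1.74 (SE 0.49, adjusted p = 0.018), which did not pass in limma-voom (adjusted p = 0.15) and which the exact permutation test narrowly missed (p = 0.022, 0.051 after adjustment). Within the runs of library numbers this difference was −1.80, −1.50 and −0.04 on the scale of log2(CPM + 0.5). The genotype difference was smaller after LPS by 3.43 (SE 0.69, adjusted p = 0.0039), and Itgb7 was the only one of the 10 genes with a called interaction. In the fit that held the length slope, 5 of the 10 genes had one (Itga4, Itgam, Itgav, Itgb5 and Itgb7).

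Itga4 (ENSMUSG00000027009, chromosome 2, 79255426 to 79333123) encodes α4, which pairs with β7 and with β1. Unstimulated libraries had 5.04, 23.8 and 41.8 CPM in WT and 4.19, 21.4 and 30.2 CPM in AhR-KO, almost the same range, with a log2 fold change of −0.32 (95% interval −1.33 to 0.68). After LPS, WT libraries had 22.6, 94.3 and 136 CPM and AhR-KO libraries 7.07, 19.6 and 51.0 CPM. LPS raised Itga4 in WT by 1.75 (SE 0.53, adjusted p = 0.011), which the exact permutation test did not pass (p = 0.026, 0.055 after adjustment). In AhR-KO the change was 0.22 (95% interval −0.78 to 1.23). The genotype difference after LPS was −1.85 (SE 0.53, adjusted p = 0.021), although the lowest WT libraries lay within the AhR-KO range. Without library 30, the highest of WT, it was −1.66 with an adjusted p of 0.053. Scaled by total counts, the LPS effect in WT was 1.40 with an adjusted p of 0.052. The interaction was −1.53 (adjusted p = 0.36), and −1.38 in the fit that held the slope (adjusted p = 0.0019).

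The proportion of α4 and αE to β7 differed by group. Itga4 to Itgb7, per kb and on the log2 scale, was −3.63 to −0.96 in unstimulated WT and 0.09 to 3.43 in unstimulated AhR-KO, so β7 transcripts exceeded α4 transcripts in every unstimulated WT library and α4 transcripts exceeded β7 transcripts in every other library. The genotype difference was 4.79 without stimulation (exact permutation test, two-sided, adjusted p = 0.0058) and −0.21 after LPS (adjusted p = 0.78). LPS raised the ratio by 5.43 in WT (adjusted p = 0.0058). Itgae to Itgb7 had a mean of −0.06 in unstimulated WT, near equal amounts, and −2.58 in unstimulated AhR-KO, a difference of −2.52 with overlapping libraries (adjusted p = 0.0094). After LPS the difference was −3.46 with no overlap (adjusted p = 0.0058). In AhR-KO both genes had few counts, and the ratio rests on 143 and 299 counts over 6 libraries without stimulation and on 68 and 197 after LPS. The lowest ratios were −6.83 in library 19 without stimulation, which had 0 Itgae counts, and −5.62 in library 32 after LPS, which had 2. The medians of Itgae to Itgb7 were −1.86 and −1.77 in AhR-KO, beside 0.07 and 1.16 in WT.

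**Figure D3:**
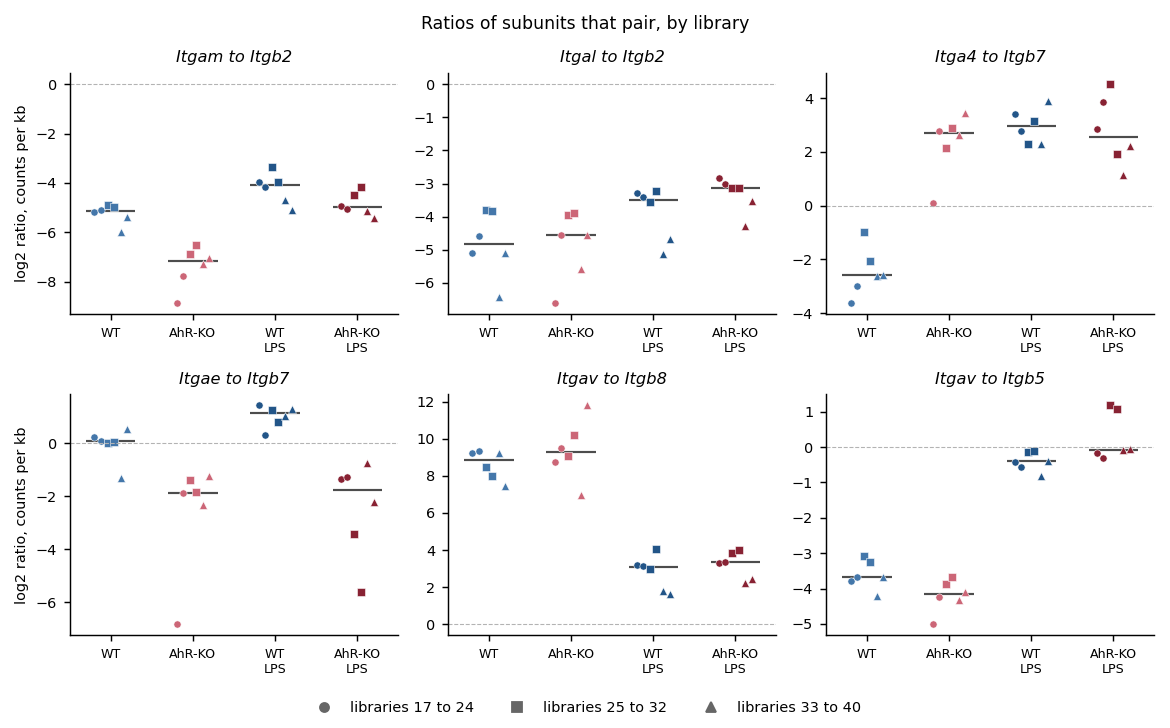
Log2 ratio of counts per kb of 6 subunit pairs in each library, by group, with a bar at the median and a dashed line at equal amounts. Itga4 to Itgb7 is below 0 in the unstimulated WT libraries and above 0 in all others, and Itgav to Itgb8 drops with LPS in both genotypes.

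Most tested markers of dendritic or Langerhans cells, neutrophils, and mast cells or basophils were, like Itgae and Itgb7, lower in AhR-KO in at least one state. Of all genes tested, 3.57% were called lower and 0.916% higher in AhR-KO without stimulation, and 6.19% and 2.17% after LPS. In a bulk sample, fewer cells of a type and less RNA per cell cannot be told apart. Of 9 dendritic and Langerhans cell markers, 8 were tested, and 4 were lower and 1 higher in AhR-KO without stimulation and 6 were lower after LPS. Their summed level ranged from 765 to 1349 CPM in unstimulated WT, 524 to 887 in unstimulated AhR-KO, 1104 to 2988 in WT after LPS and 198 to 1106 in AhR-KO after LPS. Cd207, which encodes langerin, had 35.4 CPM in unstimulated WT and 0.038 CPM in AhR-KO, and Epcam 71.1 and 1.43 CPM, while Zbtb46 had 3.42 and 3.44 CPM and Xcr1 was at 0 in 12 of the 24 libraries. Of 8 neutrophil markers, all 7 tested were lower without stimulation and 5 after LPS. Their sum ranged from 1677 to 12705.5 CPM in unstimulated WT, with the highest value in library 33, from 256 to 805 in unstimulated AhR-KO, from 725 to 8432 in WT after LPS and from 141 to 1019 in AhR-KO after LPS, and Mpo was at 0 in 11 libraries. Of 8 mast cell and basophil markers, 6 were tested, and 3 and 4 were lower. Their sum was 4.88 to 18.1 CPM in unstimulated WT, 1.98 to 4.12 in unstimulated AhR-KO, 14.7 to 41.5 in WT after LPS and 4.67 to 13.0 in AhR-KO after LPS, with Mcpt4 at 0 in 19 libraries. The remaining lists differed in direction. Of 5 fibroblast markers, all tested, 1 was higher after LPS and none was called without stimulation, with a median sum of 1.34 CPM in WT and 12.7 CPM in AhR-KO after LPS. Of 2 tested NK cell markers, 1 was higher after LPS, and none was called without stimulation. Of 3 tested endothelium markers, 1 was lower without stimulation and none was called after LPS, with median log2 fold changes of −2.18 and 0.15. The median sum of the endothelium list was 15.9 CPM in WT and 3.07 CPM in AhR-KO without stimulation, and 20.6 and 8.63 CPM after LPS. The part of these cells in the differences of Itgae and Itgb7 was not tested.

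The αv subunit and its partners changed with LPS in both genotypes and were not called by genotype. Itgb8 (ENSMUSG00000025321, chromosome 12, 119158022 to 119238802, minus strand) was close to undetected without stimulation, with at most 0.200 CPM in WT and 0.109 CPM in AhR-KO and only 42 and 18 counts over 6 libraries. After LPS its libraries had 8.95, 9.63 and 24.0 CPM in WT and 6.97, 9.44 and 19.3 CPM in AhR-KO. The ranges were far apart, with log2 fold changes of 6.90 in WT (SE 0.67, adjusted p = 1.7e-08) and 7.93 in AhR-KO (SE 0.72, adjusted p = 3.2e-09), which rest on the few unstimulated counts. By genotype Itgb8 differed after LPS by −0.09 (95% interval −1.08 to 0.89). The interaction was 1.02 (adjusted p = 0.78).

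Itgav (ENSMUSG00000027087, chromosome 2, 83724397 to 83806916), which encodes αv, had 6.65, 27.99 and 57.0 CPM in unstimulated WT and 4.78, 26.5 and 47.8 CPM in unstimulated AhR-KO. After LPS the libraries had 31.7, 80.1 and 187 CPM in WT and 31.5, 75.5 and 264 CPM in AhR-KO, and both sets overlapped with the unstimulated ones. The LPS effect was 1.58 in WT (SE 0.61, adjusted p = 0.043) and 2.18 in AhR-KO (SE 0.62, adjusted p = 0.0056). The exact permutation test of the effect in WT gave p = 0.037 (0.074 after adjustment). The call in WT was lost under 14 of the alternatives tried, among them leaving out library 17, 18, 20, 21, 29, 30, 33 or 34, with adjusted p values up to 0.13. It held with a factor for the runs of library numbers. Within each run of library numbers the effect in WT was 1.69, 1.66 and 1.25, and in AhR-KO 2.66, 2.44 and 1.11. The length slope took 96.7% of the variance of Itgav within groups, and in the fit that held it the LPS effects were 1.33 and 2.16 (adjusted p = 1.4e-09 and 2.1e-13).

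Itgb5 (ENSMUSG00000022817, chromosome 16, 33829665 to 33949338), the other partner of αv, went the opposite way. Unstimulated libraries had 40.6, 118 and 159 CPM in WT and 51.1, 157 and 210.3 CPM in AhR-KO. After LPS they had 13.7, 37.0 and 68.2 CPM in WT and 11.1, 29.5 and 38.5 CPM in AhR-KO, all of the latter below unstimulated AhR-KO. The log2 fold changes were −1.57 in WT (SE 0.41, adjusted p = 0.0035) and −2.40 in AhR-KO (SE 0.42, adjusted p = 4.9e-05). The genotype differences were 0.35 and −0.48 with 95% intervals of −0.43 to 1.13 and −1.26 to 0.31. On the scale of ratios, Itgav to Itgb8 fell by 5.81 in WT and by 6.19 in AhR-KO, and Itgav to Itgb5 rose by 3.21 and 4.47 (exact permutation test, two-sided, adjusted p = 0.0058 in all 4). Between genotypes, Itgav to Itgb5 differed by −0.59 without stimulation (adjusted p = 0.052) and by 0.67 after LPS (adjusted p = 0.037), with overlapping libraries in both states. Per kb, Itgb5 transcripts exceeded those of Itgb8 in the means of every group, with 10.8 against 1.08 CPM per kb in WT after LPS and 7.75 against 1.02 in AhR-KO.

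**Figure D4:**
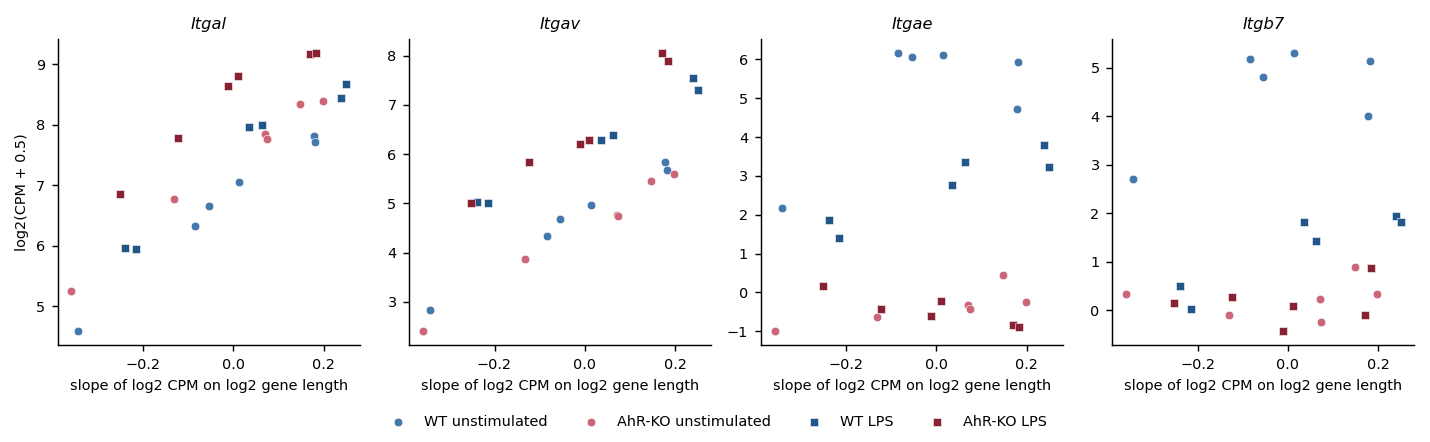
Level of Itgal, Itgav, Itgae and Itgb7 as log2(CPM + 0.5) against each library's slope of log2 CPM on log2 gene length, coloured by group. Itgal and Itgav climb with the slope inside every group, where it took 96.5% and 96.7% of their variance, and Itgae and Itgb7 separate WT from AhR-KO at all slopes without stimulation.

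The length slope took between 24.7% (Itgb8) and 96.7% (Itgav) of the variance within groups over the 10 genes, from 24 libraries after removal of group means. It took 82.4% for Itgam, 86.7% for Itga4, 84.0% for Icam1, 68.0% for Itgb2 and 95.1% for Itgb5, but 27.3% for Itgae and 30.3% for Itgb7. The slope was computed over all genes, these 10 included. The share was high both for Itgb5, with 3553 bases of exon, and for Itgav, with 10744 bases. What sets the slope was not tested.

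Of 17 other integrin subunits, 9 were tested, and without stimulation Itga2b, the α chain of the platelet fibrinogen receptor, was lower and Itgad, the αD partner of β2, was higher in AhR-KO, beside 3.57% and 0.916% of all genes. The median log2 fold change of the list was 0.06 without stimulation and −0.62 after LPS. Itga2b had 2.09 ± 1.31 CPM in WT and 0.207 ± 0.149 CPM in AhR-KO (SD, n = 6, log2 fold change −3.30, adjusted p = 0.0086). After LPS it was the only one called (−2.65, adjusted p = 0.022), beside 6.19% of all genes lower and 2.17% higher. Without stimulation, Itgad had 2.63 ± 1.07 and 5.54 ± 1.94 CPM (log2 fold change 1.07, adjusted p = 0.041). Itgax, the αX subunit that is also on the alveolar marker list and is named here after its values were seen, had 555 ± 200 CPM in WT and 1323 ± 431 CPM in AhR-KO (log2 fold change 1.25, adjusted p = 0.061). Named after their values were seen, Itga5 and Itga6 were called by LPS in both genotypes. LPS raised Itga5, the fibronectin receptor subunit, and lowered Itga6, a laminin receptor subunit, in both genotypes (2.35 and −2.23 in WT, 2.60 and −2.71 in AhR-KO). Itgb1, also named after its values were seen, was called higher after LPS in WT (1.01) and had a log2 fold change of 0.93 in AhR-KO. In all, LPS raised 2 and lowered 1 of the list in WT (13.2% and 11.8% of all genes). In AhR-KO it raised 1 and lowered 1 (15.1% and 15.7%). No subunit of this list had a called interaction.

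Among 15 tested ligands and counter-receptors of 21, Mfge8, a bridging protein with an RGD site that αv integrins bind, was lower in AhR-KO in both states. Its libraries ranged from 399 over a median of 1619 to 2048 CPM in unstimulated WT and from 48.7 over 107 to 163 CPM in unstimulated AhR-KO, with no overlap (log2 fold change −3.85, adjusted p = 1.7e-06). After LPS the medians were 741 and 11.4 CPM (−6.09, adjusted p = 6.9e-09). Vcam1, a ligand of α4 integrins, had 3.70 ± 0.55 CPM in unstimulated WT and 3.54 ± 0.91 CPM in unstimulated AhR-KO (log2 fold change −0.06) and rose with LPS to 49.7 ± 18.1 CPM in WT and 177 ± 36.5 CPM in AhR-KO. It was higher in AhR-KO after LPS by 1.83 (adjusted p = 6.1e-06) with no overlap, and its interaction was 1.89 (adjusted p = 0.0010), while Itga4 differed the other way in the same libraries. Thy1, a counter-receptor of αM and αv integrins, was lower in AhR-KO, with log2 fold changes of −3.41 without stimulation and −5.58 after LPS (adjusted p = 0.011 and 8.9e-05).

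Cdh1, which encodes E-cadherin, the ligand of αEβ7, is named here after its values were seen. Its lowest, median and highest libraries had 10.7, 174 and 299 CPM in unstimulated WT and 5.48, 62.4 and 108 CPM in unstimulated AhR-KO, and the medians were 15.6 and 2.98 CPM after LPS. The groups overlapped in both states, and the genotype differences of −1.43 and −2.47 were not called (adjusted p = 0.54 and 0.066). LPS lowered Cdh1 by 3.01 in WT and by 4.05 in AhR-KO (adjusted p = 0.0088 and 9.3e-04). Also called by genotype, and outside the rule for naming, were Jam2, Ccn1 and Spp1. Jam2 was lower without stimulation (−2.19), with only 0.730 ± 0.367 CPM in WT and 0.165 ± 0.226 CPM in AhR-KO. After LPS it was higher in AhR-KO by 1.30 with no overlap, but was not called (edgeR, adjusted p = 0.12). Ccn1 had 0.016 ± 0.029 CPM in WT and 1.28 ± 2.39 CPM in AhR-KO without stimulation, where library 36 had 6.15 CPM and the others at most 0.513. Spp1, which encodes osteopontin, a ligand of α4 and αv integrins, was higher by 1.40 after LPS. In all, 1 ligand was higher and 3 lower without stimulation and 2 higher and 2 lower after LPS, with median log2 fold changes of −0.06 and 0.06. The shares of all genes were 0.916% and 3.57% without stimulation and 2.17% and 6.19% after LPS. LPS raised 6 and lowered 2 in WT (13.2% and 11.8% of all genes) and raised 4 and lowered 3 in AhR-KO (15.1% and 15.7%). An interaction was called for 4, positive for Jam2, Vcam1 and Spp1 and negative for Mfge8 (1.95% and 2.34% of all genes).

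**Figure D5:**
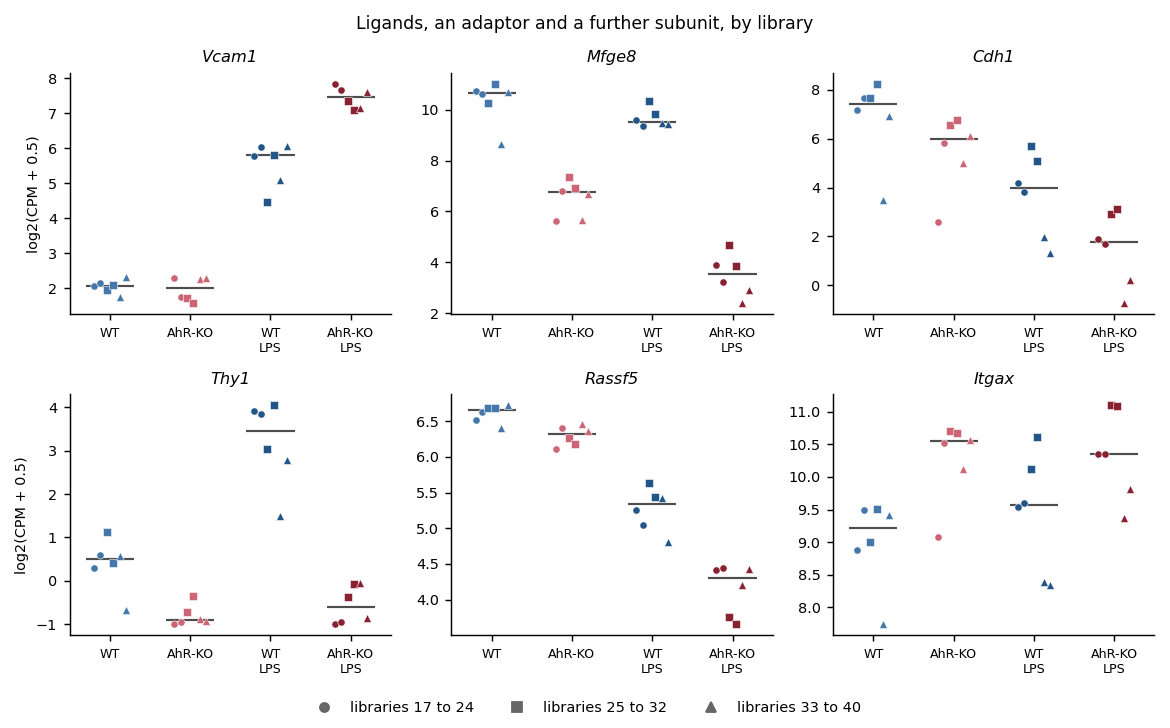
Level of 4 ligands or counter-receptors (Vcam1, Mfge8, Cdh1 and Thy1), the adaptor gene Rassf5 and the subunit gene Itgax as log2(CPM + 0.5) in each library, by group, with a bar at the median. Mfge8 is lower in AhR-KO in both states, and Vcam1 is higher in AhR-KO only among the LPS-treated libraries.

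Of 34 genes for activation and adaptors of integrins, 31 were tested, and 1 was lower in AhR-KO without stimulation and 2 after LPS, beside 3.57% and 6.19% of all genes. Rasgrp2, which encodes an exchange factor for Rap1, was lower in AhR-KO in both states, with 4.54 ± 0.66 and 1.57 ± 0.47 CPM without stimulation (log2 fold change −1.53, adjusted p = 0.0037) and 1.47 ± 0.52 and 0.325 ± 0.197 CPM after LPS (−2.18, adjusted p = 9.8e-05). Rassf5, whose product is a Rap1 effector that acts on LFA-1, had 97.2 ± 8.15 and 78.4 ± 7.50 CPM without stimulation (log2 fold change −0.31, adjusted p = 0.38). After LPS it had 38.6 ± 7.86 CPM in WT and 17.7 ± 4.21 CPM in AhR-KO with no overlap (−1.13, adjusted p = 1.6e-05), and it was the only gene of the list with a called interaction (−0.82, adjusted p = 0.030). None of the list was higher in AhR-KO. The medians of the list were −0.01 and −0.03. LPS raised 3 and lowered 2 in WT and raised 4 and lowered 3 in AhR-KO, beside 13.2% and 11.8%, and 15.1% and 15.7%, of all genes.

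Of 14 genes for TGF-β, its latent complex, its receptors and Smad7, 12 were tested. Tgfb3 was the only one called by genotype and was lower in both states, beside 3.57% and 6.19% of all genes. It had 2.90 ± 1.41 CPM in unstimulated WT, and 4 of 6 unstimulated AhR-KO libraries had no count (log2 fold change −6.47, adjusted p = 3.9e-05). After LPS it had 0.579 ± 0.366 CPM in WT and 0.029 ± 0.034 CPM in AhR-KO (−4.19, adjusted p = 0.0020). The medians of the list were 0.61 and 0.17. LPS raised 3 and lowered 2 in WT and raised 4 and lowered 2 in AhR-KO, where the shares of all genes were those given for the other lists. TGF-β was part of the medium in all groups.

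The genes nearest to each member over the 24 libraries were found among 12714 genes by the root mean square distance of log2(CPM + 0.5) after each gene was centred on its own mean. For Itgb7 these were Igha at 0.51 and Trp53i11 at 0.52, beside a spread of Itgb7 of 1.89 about its own mean. Igha, an immunoglobulin heavy chain gene, had 9.21 ± 5.45 CPM in unstimulated WT, 0.016 ± 0.038 CPM in unstimulated AhR-KO and 0.567 ± 0.373 CPM in WT after LPS, and it was at 0 in all AhR-KO libraries after LPS, while the B cell markers stayed under 1 CPM in every group. For Itgae they were Nedd4 at 0.86 and Syt9 at 0.90, beside a spread of 2.52. Icam1 was nearest to Clic4 (0.23) and Nod2 (0.25), Itgb8 to Nfkbiz (0.36) and Pde4b (0.37), and Itgav to Nfkb1 (0.28) and Lrrc8c (0.30). Itgb5 was nearest to Fkbp5 (0.21) and Aacs (0.27), Itga4 to Fchsd2 (0.39) and Atmin (0.40), and Itgam to Rbpms (0.35) and Dach1 (0.41). Itgal was nearest to Xdh (0.23) and App (0.24), and Itgb2 to Gm14699 (0.19) and Psap (0.22).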

How the data were processed

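Poly(A) libraries made with a directional kit were aligned by the authors with GSNAP (mm10), and featureCounts 2.0.1 assigned unique alignments to Ensembl 98 genes, strand kept. The file deposited by the authors holds raw counts per gene beside exon coordinates and lengths. The 92 spike-in rows held 1 count in all and were left out. A table of gene IDs and symbols named 55154 genes. The genes and lists described were chosen with earlier results of these data known.

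One model in edgeR 4.0.16, run in R 4.3.3, covered all 24 libraries, with the 4 groups as terms, TMM factors of 0.704 to 1.30, filterByExpr and the robust quasi-likelihood F-test, adjusted by Benjamini-Hochberg over 16593 genes. No minimum fold was set for the interaction. Standard errors were taken from the log2 fold change and its F. Exact two-sided permutation tests over 924 arrangements used log2(CPM + 0.5) for members (40 tests) and counts per kb with 0.5 counts added for ratios (24 tests). The smallest p they allow is 0.0022. The labels do not name animals per library, so p-values measure the spread between these libraries.

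All 10 members were named, with the called genes of the 3 smallest adjusted p in each of 4 lists by genotype, and the 2 nearest genes per member. Marker lists held 10 cell types. Alternatives were other scalings and filters, DESeq2 1.42.0, limma-voom (limma 3.58.1), only the libraries compared, the run of library numbers or the length slope as covariate, no minimum fold, and libraries left out. Leaving out libraries 19 and 33 was chosen after seeing the data. The scripts were tested on simulated data. Tests ran in Python 3.11.15 (numpy 2.4.6; pandas 2.3.3), and plots in matplotlib 3.10.9. A comparison of protein sequences was not made.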

Additional observations from a re-analysis of the deposited data

Results flagged for a closer look

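In unstimulated AhR-KO BMDMs, library 19 had 1701 CPM of Itgb2, far below the other 5 libraries by Dixon's test, and it also had the lowest length slope of all libraries. In WT after LPS, library 29 had 24.0 CPM of Itgb8, far above the other 5. Dixon's test was applied to 40 groups, of which chance gives about 1 in 20. The genotype difference of Itgb7 differed between the states by 3.43 on the log2 scale (edgeR, adjusted p = 0.0039), with −5.18 without stimulation and −1.74 after LPS.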

How the results depend on the processing

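Of the log2 fold changes of members under all alternatives, 1682 kept their direction and side of the threshold, 14 passed it newly, 17 no longer passed it and 26 changed sign, all of the last from values that were not called. With the length slope as a covariate, 5 members had a called interaction (Itga4, Itgam, Itgav, Itgb5 and Itgb7) against 1. Leaving out 1 library at a time, members called numbered 2 to 2 and 2 to 3 by genotype without stimulation and after LPS, 6 to 8 and 5 to 5 by LPS in WT and AhR-KO, and 1 to 1 for the interaction, with 13 to 21 exact tests and 13 to 15 ratio tests past 0.05. Sign changes with total library size were those of Icam1 by genotype after LPS (−0.033), Itga4 by LPS in AhR-KO (−0.28) and the interaction of Itgal (−0.10). Without libraries 34 (WT unstimulated) and 38 (WT LPS), the 2 that nearly lack Y-linked counts, they were Itgb2 by LPS in WT (0.12) and the interaction of Itgal (−0.085). With 1 library left out, the ranges that crossed 0 were −0.45 to 0.037 for Itgav by genotype without stimulation, −0.74 to 0.014 for Itgam, −0.0017 to 0.70 for Itgav and −0.32 to 0.23 for Itgb8 by genotype after LPS, −0.20 to 0.084 for Itgb2 by LPS in WT, −0.16 to 0.41 for Itga4, −0.90 to 0.20 for Itgae and −0.50 to 0.12 for Itgb7 by LPS in AhR-KO, and −0.19 to 0.29 for the interaction of Itgal. The cause was not tested. With total library size, the median log2 fold change of all genes was −0.09 by genotype without stimulation and −0.26 after LPS. It was −0.31 and −0.52 by LPS in WT and AhR-KO and −0.18 for the interaction. In the main fit these medians were −0.01, −0.05, 0.03, −0.03 and −0.05. Over all genes, calls went from 1387 to 2096 by genotype after LPS and from 4137 to 6305 by LPS in WT without a minimum fold. For the interaction of genotype and LPS, all genes tested, they went from 713 to 1125 with DESeq2, 1201 with the run of library numbers and 2721 with the length slope. Counts of Itgae, Itgb7 and Itgb8 near 0 limit fold changes against those groups. No paired analysis was possible because the library numbers are unique and the labels name no animals. The tests treat all libraries as unrelated, and whether unstimulated and LPS libraries share animals was not tested.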
